A study of Musca domestica with 8 samples.

Results

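Storage proteins and lipid carriers of the housefly, *Musca domestica*, were described from the contigs of the 791spin transcriptome whose deposited annotation names a hexamerin, an arylphorin, a larval serum protein, lipophorin, lipid storage or a perilipin, with an insect as the species of the match. The rule found 38 of the 35834 contigs. They carry 9 protein names, and 21 of the 38 contigs were matched to *M. domestica*, 8 to *Glossina morsitans morsitans*, 4 to *Drosophila melanogaster*, 3 to *Sarcophaga peregrina* and 2 to *Aedes aegypti*. The terms larval serum protein and perilipin matched 0 contigs, and the term lipophorin matched 3 contigs that are all named as receptors, so the particle protein itself is not described here. The 3 contigs matched by arylphorin are named for a protein that binds the arylphorin gene and not for a storage protein.

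The 8 samples, numbered No.1 to No.8, all carry the strain label 791spin, a line obtained by selecting the multi-resistant Danish strain 791a with the insecticide spinosad, and all are spinosad resistant. Each is labelled as whole adult flies of 5 to 7 days, male and female pooled, about 60 flies to a pool, with only sugar as food during the experiment, whereas the rearing of the strain gives milk powder with sugar after emergence. Since there is 1 condition, no groups were compared and every value below is a description of a sample or of the spread between samples. The labels describe a normalized cDNA library, a step that lowers abundant transcripts, and they do not say that the samples came from separate cultures or what sets one apart from the next. The study itself describes a single library.

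Hexamerins are large multi-subunit proteins that the fat body, the insect counterpart of liver and adipose tissue, releases into the hemolymph. Larvae lay them down as a store of amino acids for metamorphosis, and the housefly also has a hexamerin that adults make after a protein meal. Fat is kept in lipid droplets, whose surface in *Drosophila* carries the perilipins lipid storage droplet-1 and lipid storage droplet-2, which govern the access of lipases to the fat. Lipophorin is the lipoprotein that ferries diacylglycerol through the hemolymph, and its receptors belong to the family of the low density lipoprotein receptor.

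A sample held 10266664 to 16115208 counts, and the detection limit of 3 counts was 0.186 to 0.292 per 1000000 counts (CPM). None of the 28 sample pairs matched within counting error (chi-square over degrees of freedom 36.7 to 234), so each sample was kept. The 38 contigs of these proteins held 142567 counts in all, from 6447 in No.3 to 35042 in No.6. A mean count of at least 5 was reached by 21 of them, and the other 17 held between 2 and 37 counts each. These 21 contigs all varied between samples beyond counting error (chi-square test, Benjamini-Hochberg adjustment over all contigs), but so did 95.1% of all tested contigs. A better measure of size is the highest sample divided by the lowest. It was at least 4 for 19 of the 21 contigs, where 62.6% of all tested contigs reached 4, and its median was 19.4 against 5.02 over all tested contigs. In a pool of whole flies, fewer cells that use a gene and less RNA in each cell cannot be told apart.

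**Figure D1:**
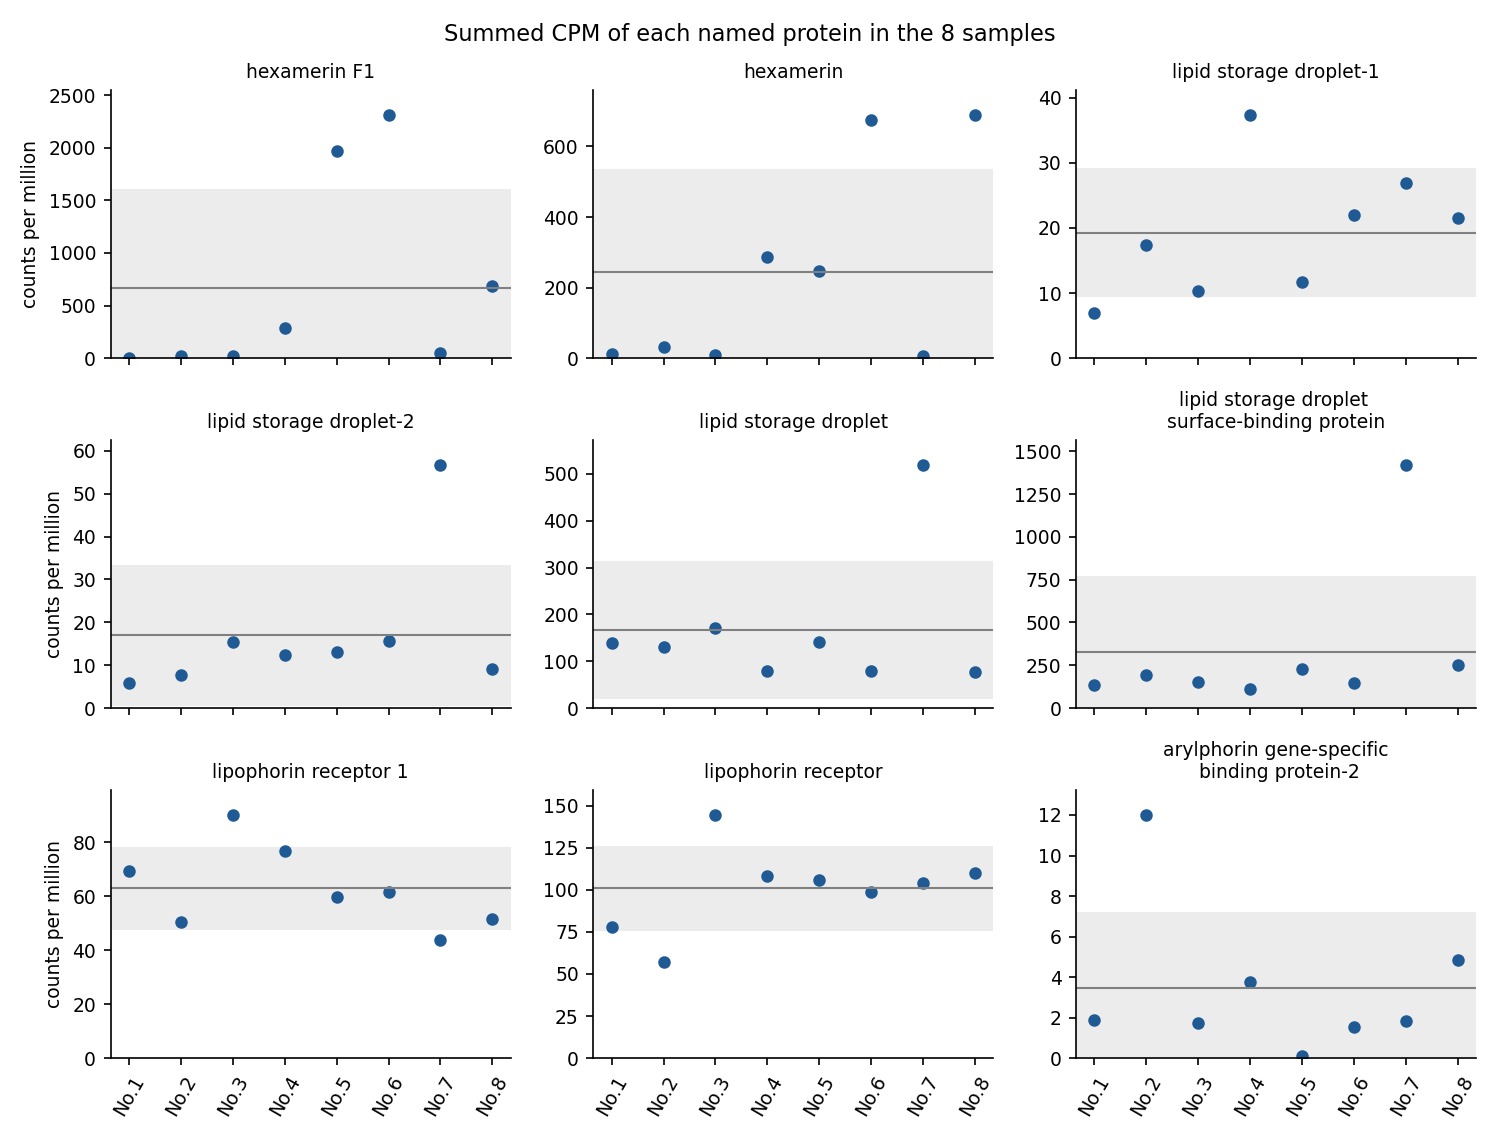
Summed CPM of each of the 9 named proteins (vertical axes, linear, each from 0) in samples No.1 to No.8. Points are single samples, the grey line is their mean and the band is 1 SD on either side, drawn no lower than 0. Hexamerin F1 was highest in No.5 and No.6, and 3 of the 4 lipid droplet protein names, which may not be separate genes, were highest in No.7.

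Hexamerin F1 was the most counted of the 9 proteins. Its name belongs to the hexamerin that houseflies make as adults. Summed over its 20 contigs, No.1 had 5.90 CPM, No.2 18.3, No.3 22.5, No.4 283, No.5 1972, No.6 2312, No.7 47.6 and No.8 685. No.5 and No.6 thus stood far above the rest, No.8 and No.4 came next, and the other samples lay below 50 CPM. The mean was 668 ± 942 CPM (SD, n = 8), or 433 CPM without No.6, and the highest sample was 392 times the lowest.

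Nearly all of this signal came from 1 contig. M_dom_rep_c16955 (1044 bp) carried 96.7% of the hexamerin F1 counts, and its share within a sample was lowest in No.2 at 88.3% (95% exact binomial interval 83.8 to 91.9%) and highest in No.7 at 98.7% (97.4 to 99.5%). Its own values ran from 5.46 CPM in No.1 to 2231 CPM in No.6, a ratio of 409. By that ratio it ranked 69 among the 23597 tested contigs.

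The remaining 19 hexamerin F1 contigs held 1828 counts. M_dom_rep_c11760 (1158 bp) had 721 of them and M_dom_rep_c17522 (670 bp) had 699. M_dom_rep_c11760 was at 33.7 CPM in No.6 and at 16.7 in No.5. M_dom_rep_c17522 was at 28.7 CPM in No.6, at 19.3 in No.4 and only at 7.31 in No.5. The contigs of 1 protein name therefore did not all rank the samples alike. M_dom_rep_c15717 (1007 bp) had 53 counts in No.6 and 26 in No.5, with 4 more in No.8, 2 in No.4 and none in the other samples, which allows up to 0.287 CPM there. M_dom_rep_c17273 (628 bp) had 86 counts in No.6 and 44 in No.4, against 9 in No.5 and 20 in No.8. The 15 contigs below the minimum held 155 counts together, of which 149 fell in No.4, No.5, No.6 and No.8 and 6 in the other samples.

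The second storage protein, annotated hexamerin of *M. domestica* without a further letter, is a single contig, M_dom_rep_c17278 (747 bp). Here No.1 had 11.5 CPM, No.2 32.2, No.3 8.82, No.4 287, No.5 247, No.6 675, No.7 5.51 and No.8 690. No.6 and No.8 were nearly level at the top, and No.4 and No.5 nearly level below them. The mean was 245 ± 292 CPM (SD, n = 8) and the highest sample was 125 times the lowest.

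Both hexamerins thus had the same 4 samples at the top. In all 6 tested hexamerin contigs, No.4, No.5, No.6 and No.8 each lay above No.1, No.2, No.3 and No.7. This order was seen in the values before it was counted, 5 of the 6 carry 1 name, and contigs of 1 gene may share sequence. Among all tested contigs 0.767% had it, but that share is not an even measure here. M_dom_rep_c11760, M_dom_rep_c15717 and M_dom_rep_c17273 reached the minimum mean count only through the 4 high samples, with at most 8 counts in any other. Such contigs were tested because they are high there. No.6 was the highest sample for 5 of the 6, where it was the highest for 5.16% of all tested contigs. A ratio of highest to lowest of at least 50 was found for 4 of the 6, where 2.51% of all tested contigs reached it. These shares have the same limit. The 5 all carry 1 name and include M_dom_rep_c11760, M_dom_rep_c15717 and M_dom_rep_c17273, and the 4 include M_dom_rep_c11760.

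The balance of counts between the 2 proteins changed from sample to sample. Hexamerin F1 made up 33.8% of their joint counts in No.1 (95% exact binomial interval 28.3 to 39.7%) and 36.2% in No.2 (32.7 to 39.8%). Their counts were level in No.4, with 49.6% (48.3 to 50.9%), and in No.8, with 49.8% (49.01 to 50.6%). Hexamerin F1 was well ahead in counts in No.3 with 71.9% (66.7 to 76.7%) and in No.6 with 77.4% (76.9 to 77.9%). It took most of the counts in No.5, with 88.9% (88.4 to 89.3%), and in No.7, with 89.6% (86.9 to 91.9%). No.5 and No.7 therefore had almost the same balance although their hexamerin F1 levels were 1972 and 47.6 CPM. These intervals cover counting error only. The counts were not divided by contig length here, so equal counts do not mean equal levels of the 2 proteins.

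**Figure D2:**
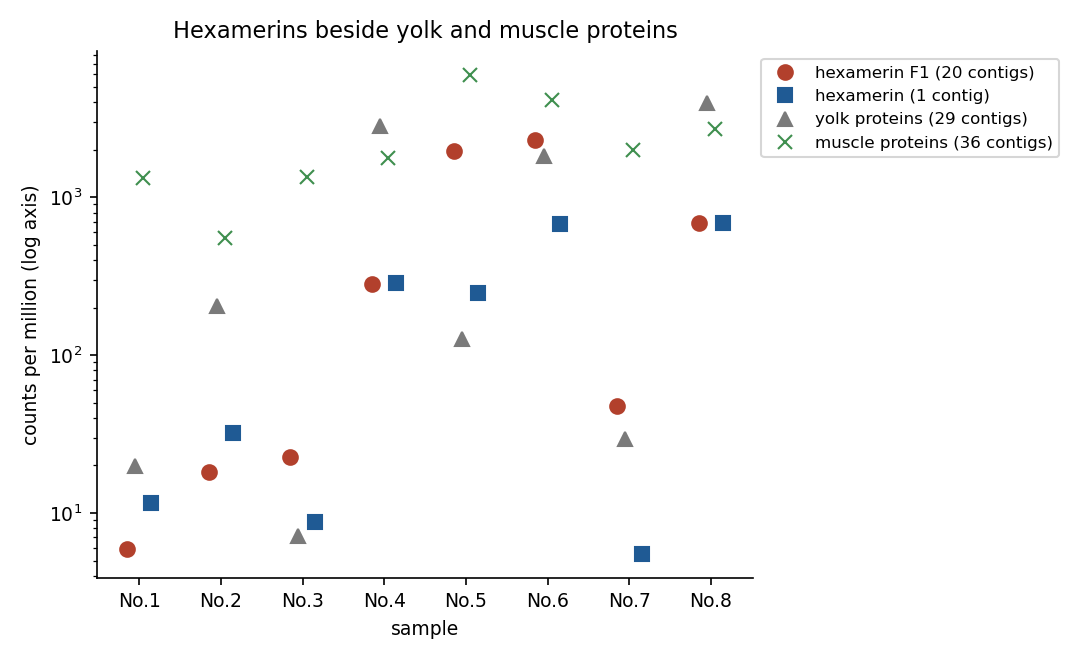
Summed CPM (vertical axis, log scale) of hexamerin F1, hexamerin, yolk proteins and muscle proteins in each sample, with points shifted sideways for sight. In No.4, No.5, No.6 and No.8 both hexamerins had at least 247 CPM, against at most 47.6 CPM in the other samples, while yolk proteins had 126 CPM in No.5.

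Markers of other cells were counted in the same samples. Yolk proteins, which the fat body and ovary of female flies make, are named on 29 contigs with an insect match, and their sum was 126 to 3934 CPM in the 4 samples with high hexamerin and 7.19 to 205 CPM in the other 4. These ranges overlap because of No.5, with 126 CPM, and No.2, with 205 CPM. No.5 therefore combined 1972 CPM of hexamerin F1 with less yolk signal than No.2, which had 18.3 CPM of hexamerin F1. By number, the yolk sum was at least 205 CPM in every even-numbered sample and at most 126 CPM in every odd-numbered one. Of the 21 tested yolk contigs 17 had every even-numbered sample above every odd-numbered one, where 8.05% of all tested contigs did. Eggshell proteins, named on 6 such contigs, reached 396 CPM in No.8, 26.3 in No.6 and 1.60 in No.4, while No.5 stayed at 0.0961 CPM. In the remaining samples they were at 0.276 CPM or lower, and No.7 had no count, which allows up to 0.258 CPM. Muscle proteins, named on 36 contigs, had their highest sums in No.5 (5973 CPM) and No.6 (4134 CPM), the samples with the most hexamerin F1, against 551 to 2710 CPM elsewhere. The part of these cells in the hexamerin values was not tested. Names of larval or pupal cuticle proteins matched 0 contigs.

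No tested contig of the 38 had every even-numbered sample above every odd-numbered one, an order that 8.05% of all tested contigs showed. The opposite order, which 5.8% of all tested contigs had, was found for 2 contigs, M_dom_rep_c16500 and M_dom_rep_c17069, both annotated lipid storage droplet. The labels give the numbers no meaning.

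The proteins of the lipid droplet surface were set apart by another sample. On M_dom_rep_c11759 (2093 bp), the only contig annotated lipid storage droplet surface-binding protein, No.1 had 138 CPM, No.2 192, No.3 152, No.4 109, No.5 230, No.6 148, No.7 1421 and No.8 254. No.7 was 5.59 times the next sample and 9.32 times the median of the other 7. Without No.7 the mean was 175 ± 52.5 CPM (SD, n = 7), against 331 ± 443 CPM over all 8 samples, and the ratio of highest to lowest was 2.33 rather than 13.003.

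The name lipid storage droplet, from *G. m. morsitans*, covers 6 contigs. Summed over them, No.1 had 140 CPM, No.2 131, No.3 172, No.4 79.5, No.5 140, No.6 78.7, No.7 519 and No.8 76.9. No.7 was again on top, and No.4, No.6 and No.8 were the lowest and close to each other. Without No.7 the mean was 117 ± 38.1 CPM (SD, n = 7), against 167 ± 147 CPM over 8 samples.

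The 6 contigs did not move as 1. M_dom_rep_c16500 (1573 bp) was at 203 CPM in No.7 and no higher than 32.4 CPM elsewhere. M_dom_rep_c17060 (645 bp) was at 112 CPM in No.7 and no higher than 29.3 CPM elsewhere. M_dom_rep_c23692 (535 bp) had 151 counts in No.7, against 5 to 41 counts in each of the others. These 3 contigs thus shared the height of No.7 with the surface-binding protein. The most counted of the 6, M_dom_rep_c16524 (707 bp), was at 148 CPM in No.7, only 1.501 times the 98.6 CPM of No.2. It carried 75.4% of the counts of this name in No.2 (95% exact binomial interval 73.4 to 77.3%) and 27.3% in No.8 (24.3 to 30.4%). M_dom_rep_c15755 (564 bp) was highest in No.3 with 44.2 CPM, followed by No.7 with 41.4 CPM. M_dom_rep_c17069 (525 bp) had 69 counts in all and was highest in No.3 as well.

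Lipid storage droplet-2, one of the *Drosophila* perilipins, was found on 2 contigs. For the sum of both, No.1 had 5.96 CPM, No.2 7.73, No.3 15.3, No.4 12.4, No.5 12.98, No.6 15.6, No.7 56.7 and No.8 9.02, so that No.7 was 3.64 times the next sample. The mean was 16.96 ± 16.4 CPM (SD, n = 8), or 11.3 ± 3.76 CPM without No.7 (SD, n = 7). The contigs were nearly equal in counts, with 788 on M_dom_rep_c17442 (735 bp) and 764 on M_dom_rep_c14490 (843 bp). Both were highest in No.7, with 26.5 and 30.2 CPM. They differed in No.3, where M_dom_rep_c14490 had 10.3 CPM and M_dom_rep_c17442 had 4.98 CPM.

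Lipid storage droplet-1, the other *Drosophila* perilipin, was spread differently. For this protein No.1 had 7.01 CPM, No.2 17.3, No.3 10.3, No.4 37.4, No.5 11.7, No.6 21.9, No.7 26.9 and No.8 21.6. No.4 was the highest and No.7 the second, and the mean was 19.3 ± 9.91 CPM (SD, n = 8). Nearly all counts were on M_dom_c1565 (621 bp), with 1727 of 1764, and the second contig, M_dom_c21527 (859 bp), had 37 counts and no sample above 0.682 CPM.

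**Figure D3:**
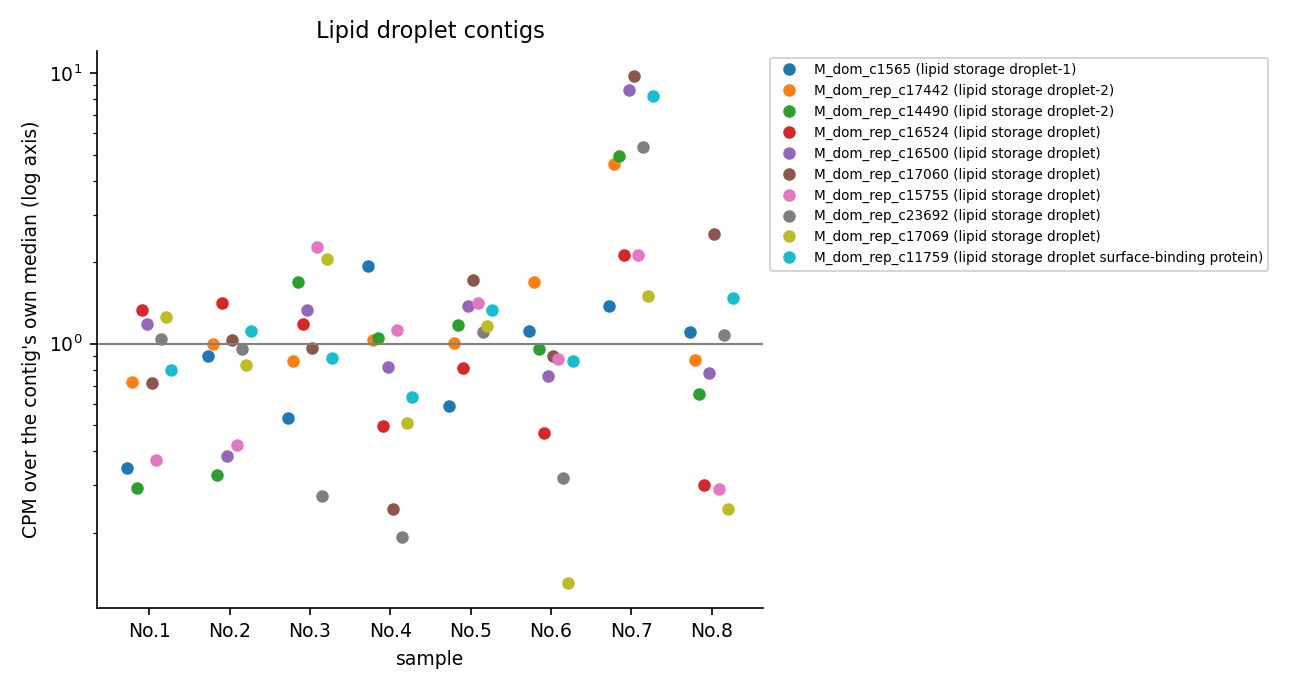
CPM of the 10 tested lipid droplet contigs, each divided by its own median over the 8 samples (vertical axis, log scale), with contigs shifted sideways within a sample. In No.7 every one of the 10 lies above its median, and 6 of them are more than 2-fold above every other sample.

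Over the 10 tested lipid droplet contigs, No.7 was the highest sample for 7 and the second for the other 3, where it was the highest for 10.3% of all tested contigs. For 6 of the 10 it was at least 2-fold above every other sample. This was seen before it was counted, and 0.407% of all tested contigs had the same feature. Several of the 10 contigs carry 1 name, and contigs of 1 gene may share sequence. Names taken from different species may also stand for 1 gene, which was not tested. The 10 contigs may therefore not be independent. Without No.7, 7 of the 10 still differed at least 4-fold between samples, where 59.6% of all tested contigs did. No.7 was the highest sample for 0 of the 5 other proteins. It had 53.1 CPM of both hexamerins together, against up to 2987 CPM in No.6, and the lowest value of lipophorin receptor 1. Of the 21 tested contigs 4 were lowest in No.7, which were 2 hexamerin and 2 receptor contigs, and 9.33% of all tested contigs were. The hexamerin contig M_dom_rep_c17273 had under 3 counts in No.1, No.3 and No.7, so its lowest sample cannot be told. The marker sums of No.7, with 1983 CPM for muscle and 29.4 CPM for yolk proteins, lay within the range of the other samples. Eggshell proteins had no count in No.7, which allows up to 0.258 CPM. The sum of contigs annotated as fat body protein or anterior fat body protein was lowest in No.7, with 98.6 CPM. Of these contigs, M_dom_rep_c6599 was lower in No.2 and M_dom_c18032 lower in No.1. The part of the marked cells in the height of No.7 was not tested. The share of the lipid droplet counts on the surface-binding protein was 70.2% in No.7 (95% exact binomial interval 69.6 to 70.8%) and 70.3% in No.8 (68.8 to 71.7%), against 43.6% to 58.2% in the other samples.

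The lipophorin receptors, which bind the circulating lipoprotein at the cell surface, had the smallest ratios of highest to lowest when summed by protein, at 2.07 and 2.53, although 1 of their 3 contigs, M_dom_rep_c19395, had a ratio of 8.64. Lipophorin receptor 1 is the single contig M_dom_rep_c13402 (1416 bp), on which No.1 had 69.3 CPM, No.2 50.3, No.3 90.2, No.4 76.6, No.5 59.6, No.6 61.7, No.7 43.6 and No.8 51.6. The highest sample was 2.07 times the lowest and the mean was 62.9 ± 15.3 CPM (SD, n = 8). Its edgeR dispersion, the squared relative spread between samples beyond counting error, was 0.152, where the median of the 21 tested contigs described here was 0.721 and that of all tested contigs 0.303. Without No.7 these medians were 0.456 for the 21 and 0.317 for all tested contigs.

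The contigs annotated lipophorin receptor after *A. aegypti* behaved in 2 ways. On M_dom_rep_c15588 (1217 bp), No.1 had 67.4 CPM, No.2 48.8, No.3 72.5, No.4 51.7, No.5 48.1, No.6 47.1, No.7 34.0 and No.8 41.2. It had its highest sample, No.3, and its lowest, No.7, in common with M_dom_rep_c13402, and its share of the joint counts of the pair stayed between 40.3% in No.4 (95% exact binomial interval 37.7 to 43.0%) and 49.3% in No.1 (47.2 to 51.4%). On M_dom_rep_c19395 (656 bp), No.1 had 10.4 CPM and No.2 8.35, against No.3 with 72.2, No.4 with 56.3, No.5 with 57.8, No.6 with 51.8, No.7 with 70.3 and No.8 with 68.7. No.1 and No.2 thus lay far below the other 6 samples on this contig alone of the 3, and it took 7.09% of the receptor counts in No.1 (6.09 to 8.20%) and 7.78% in No.2 (6.49 to 9.22%), against 30.5% to 47.5% elsewhere. The sum of the pair annotated after *A. aegypti* was lowest in No.2 with 57.2 CPM and highest in No.3 with 145 CPM, with a mean of 101 ± 25.5 CPM (SD, n = 8).

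The same position of No.1 and No.2 below every other sample was found for M_dom_rep_c14490 of lipid storage droplet-2 and M_dom_rep_c16955 of hexamerin F1, which makes 3 of the 21 tested contigs, where 8.02% of all tested contigs had it. The reverse, with No.1 and No.2 above every other sample, was found for 0 of the 21 and for 6.05% of all tested contigs, and No.1 was the highest sample for 0 of the 21 and for 16.4% of all tested contigs. No.1 and No.2 had the largest totals. The part of depth in these values was not tested.

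**Figure D4:**
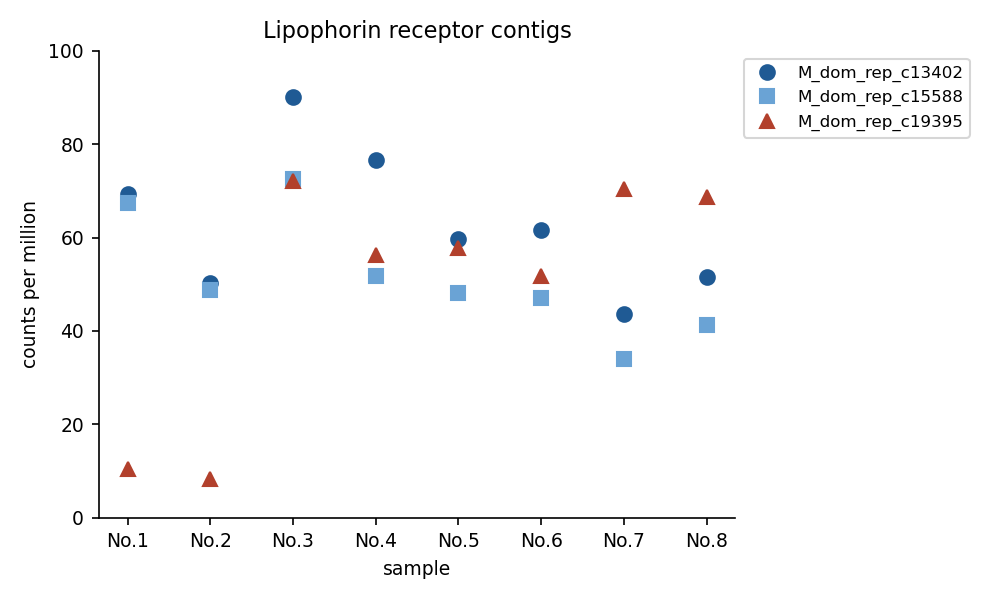
CPM (vertical axis, linear from 0) of the 3 lipophorin receptor contigs in each sample. M_dom_rep_c13402 and M_dom_rep_c15588 run side by side, whereas M_dom_rep_c19395 has 10.4 CPM in No.1 and 8.35 CPM in No.2 and at least 51.8 CPM in the other samples.

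The arylphorin gene-specific binding protein-2 was the least counted protein. Over its 3 contigs, No.1 had 30 counts, No.2 174, No.3 18, No.4 40, No.5 1, No.6 16, No.7 21 and No.8 53, or 3.46 ± 3.75 CPM (SD, n = 8), and the mean without No.2 was 2.24 CPM. No.2, with 12.01 CPM, was 2.49 times No.8, the next sample. Both tested contigs, M_dom_rep_c6578 (1771 bp) and M_dom_rep_c11455 (651 bp), were at least 2-fold above every other sample in No.2, as were 9.32% of all tested contigs, and the third, M_dom_rep_c33676 (698 bp), had 10 counts.

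Levels of different proteins were compared per length, as counts per kilobase of summed contig length and 1000000 counts (RPKM). Hexamerin was at 327 ± 391 RPKM, the surface-binding protein at 158 ± 212, lipophorin receptor at 53.8 ± 13.6 and lipophorin receptor 1 at 44.4 ± 10.8 RPKM (SD, n = 8 each). Hexamerin F1 followed with 42.2 ± 59.5 RPKM, lipid storage droplet with 36.7 ± 32.2, lipid storage droplet-1 with 13.02 ± 6.70, lipid storage droplet-2 with 10.7 ± 10.4 and the arylphorin gene-specific binding protein-2 with 1.11 ± 1.20 RPKM. In this order no protein differed from its neighbour by more than the larger of their SDs. The place of hexamerin F1 rests on the length taken, since its 20 contigs sum to 15824 bp and 19 of them held few counts. On the most counted contig alone, a reading added after the data were seen, hexamerin F1 came first with 619 ± 880 RPKM, lipid storage droplet was at 100.4 ± 60.5 RPKM and lipid storage droplet-1 at 30.4 ± 15.9 RPKM. The labels describe a normalized library. If the counted libraries were normalized, the order of levels need not be that of the RNA in the flies.

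**Figure D5:**
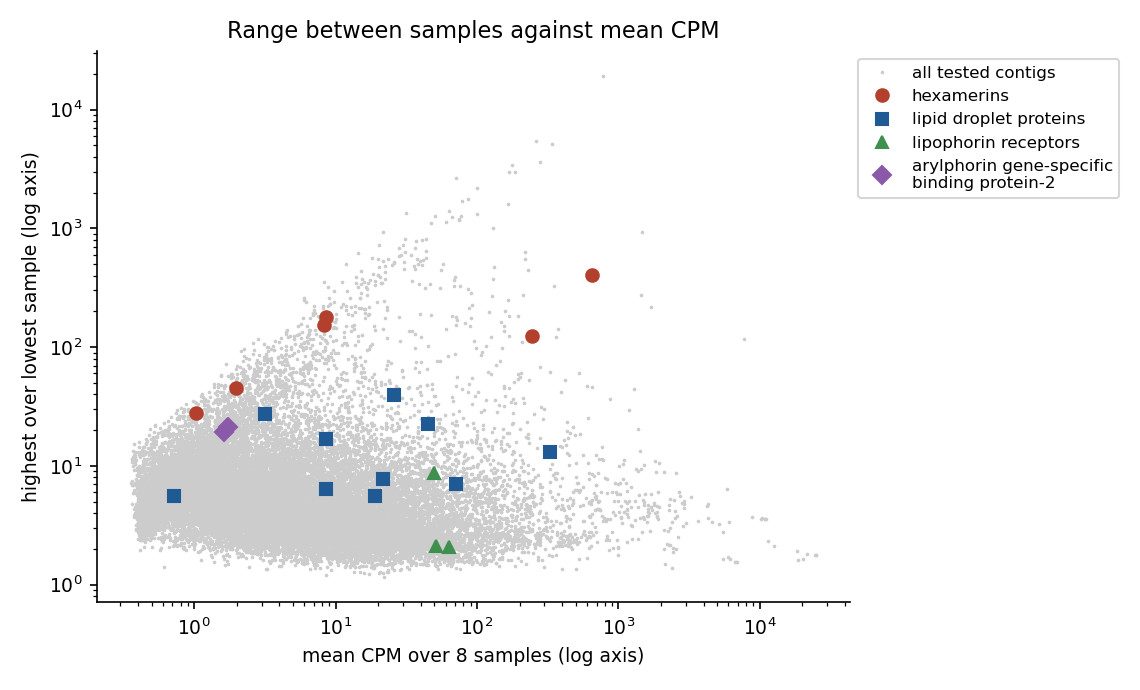
Highest sample divided by the lowest (vertical axis, log scale, values under 3 counts set to 3 counts) against mean CPM (horizontal axis, log scale). Grey points are the 23597 tested contigs and symbols are the 21 tested contigs of the described proteins, among which the hexamerins reach 409 and M_dom_rep_c13402 has 2.07.

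Other genes of lipid transport, storage and fat body secretion were taken from a list of names, which gave 30 contigs with an insect match. Of the 25 that were tested, 24 varied beyond counting error and 17 had a ratio of highest to lowest of at least 4, with a median of 4.59. Of all tested contigs 95.1% varied and 62.6% had such a ratio. Brummer, the triglyceride lipase of the *Drosophila* fat body, had 7.93 to 17.2 CPM, and adipokinetic hormone with its receptor, which call fat out of store, had 4.01 to 8.87 CPM with No.7 the highest. Hormone-sensitive lipase was at 21.3 CPM in No.7 and between 8.35 and 19.7 CPM in the other samples. No.7 was thus on top for the sums of the hormone with its receptor and of the lipase, by less than in the droplet proteins. By contig, it was the highest sample for 1 of the 2 tested contigs of the hormone and receptor. The same held for 2 of the 4 tested lipase contigs, 4 of the 25 of the list and 10.3% of all tested contigs. The receptor contig, M_dom_c22849, was highest in No.5 with 2.98 CPM. No.7 was the lowest sample for other names of the list. Contigs annotated as fat body protein or anterior fat body protein summed to 98.6 CPM in No.7 and to between 146 and 375 CPM elsewhere. Acyl-CoA-binding protein (43.04 CPM), lipin (3.70 CPM) and diacylglycerol acyltransferase (0.344 CPM) were lowest in No.7 too, as was the whole list with 369 CPM there and between 388 and 993 CPM elsewhere. The contig annotated seipin had no counts.

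Contigs of this list differed in the samples where they were high, and those named here were chosen after their values were seen. M_dom_rep_c6599, annotated anterior fat body protein, was at 154 CPM in No.6 and 131 in No.5, against 13.7 to 74.5 CPM elsewhere. The contigs annotated fat body protein, M_dom_c18032, M_dom_c34549 and M_dom_rep_c35084, were instead highest in No.4, with 119, 77.6 and 71.1 CPM, and in No.5 they were at 64.3, 47.1 and 33.3 CPM. Transferrin on M_dom_rep_c6472, an iron carrier of the hemolymph, was highest in No.3 with 235 CPM. An acyl-CoA-binding protein contig, M_dom_rep_c8895, was at 98.7 CPM in No.6 and 96.7 in No.5, against 26.7 to 48.5 CPM elsewhere. No.5 and No.6 also lay above all other samples for 3 of the 5 tested hexamerin F1 contigs, and for 2.92% of all tested contigs. Of these 3, M_dom_rep_c11760 and M_dom_rep_c15717 reached the minimum mean count only through samples where they were high. The fatty acid-binding protein contig M_dom_c1726 had 12.3 to 44.1 CPM in the even-numbered samples and 0.558 to 2.40 CPM in the odd-numbered ones, whereas the second such contig, M_dom_rep_c6237, ranged between 65.6 CPM in No.1 and 297 in No.6.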

How the data were processed

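The authors assembled pyrosequencing reads of 791spin into contigs and deposited, for each contig and 8 samples, raw counts and a scaled signal that gives every sample the total of No.6, which was not used. The counting program and the reads it counted were not given in the sources used here. Columns were matched to samples by title. Counts were divided by the sample total (CPM) and, for levels between proteins, by the summed length of the contigs of a protein. Contigs were grouped by the protein name of the deposited annotation. Each contig with a mean count of at least 5 was tested by chi-square for counts that depart, over the 8 samples, from the shares of the totals, adjusted by the Benjamini-Hochberg method at 0.05 over 23597 contigs. For the ratio of highest to lowest sample, values under 3 counts were set to 3. Dispersions came from edgeR 4.0.16 (TMM, intercept only) and, as an alternative, DESeq2 1.42.0 in R 4.3.3. Python 3.11.15 with scipy 1.17.1 and pandas 2.3.3 was used for the rest. The tests were tried on simulated data. Every protein name was described, with its most counted contig and the one of largest ratio among those with a mean count of at least 50; other contigs and all orders of samples were chosen after their values were seen. The members and lists were chosen with earlier results of these data known. Reads shared by overlapping contigs of 1 gene cannot be assigned with certainty. No contig sequence was used here.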

Additional observations from a re-analysis of the deposited data

Results flagged for a closer look

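Of 28 values per sample that were checked for a sample far from the others, 9 had one, where chance gives about 1 in 20 for normally distributed values. These CPM were skewed and not put on a log scale, so that rate need not hold for them. The 9 are not independent, since contigs and sums of 1 protein are both among them. In No.7, lipid storage droplet surface-binding protein had 1421 CPM (next sample 254 CPM), lipid storage droplet 519 CPM (172 CPM), lipid storage droplet-2 56.7 CPM (15.6 CPM) and all lipid droplet proteins together 2024 CPM (394 CPM). Of single contigs in No.7, M_dom_rep_c17060 had 112 CPM (29.3 CPM), M_dom_rep_c14490 had 30.2 CPM (10.3 CPM) and M_dom_rep_c17442 had 26.5 CPM (9.74 CPM). In No.2, the arylphorin gene-specific binding protein-2 had 12.01 CPM (4.83 CPM) and its contig M_dom_rep_c6578 had 6.15 CPM (2.46 CPM). Nothing in the labels sets No.2 or No.7 apart.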

How the results depend on the processing

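The 21 tested contigs of the described proteins varied beyond counting error with TMM factors, with DESeq2 size factors and with each sample left out (21 to 21), and 30 did with at least 1 count in any sample and 15 with a mean count of at least 50, because more or fewer contigs were tested. For all contigs the number fell to 11843 of 22439 with a mean count of at least 50 for the same reason, and was 21111 to 22250 with a sample left out. A ratio of at least 4 was found for 18 contigs with a floor of 10 counts and for 16 to 19 with a sample left out, the lowest without No.7. The median dispersion of 0.721 was 0.734 with DESeq2 and 0.456 to 0.764 with a sample left out, the lowest without No.7. The orders counted for 6 hexamerin and 6 lipid droplet contigs were found for 6 and 6 under both scalings, which were added after the data were seen. Mean CPM of a protein moved by more than its SD in 1 of 117 alternatives, lipophorin receptor with its most counted contig only (51.4 CPM against 101 CPM), which takes fewer contigs. This bar is weak. For hexamerin F1, hexamerin, the surface-binding protein and the arylphorin gene-specific binding protein-2 the SD exceeded the mean, so no fall could pass it. Taking contigs of at least 300 bp dropped none, since the shortest had 341 bp. For a protein with a single contig, its most counted contig is the whole. Mean CPM of hexamerin F1 was 433 to 763 with a sample left out, the lowest without No.6, and that of the surface-binding protein 175 to 362, the lowest without No.7. No paired analysis of conditions was possible because there is 1 condition and no second group to pair with. Depth limits the 17 contigs below the minimum and the arylphorin gene-specific binding protein-2.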
